A study of Glycine max with 36 samples.

Results

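Small RNAs were compared between the youngest seed coats of a yellow-seeded and a black-seeded soybean (Glycine max) line. Chosen were the 3 Richland and the 3 T157 immature seed coat libraries from seeds of 5 to 6 mg fresh weight, 6 of the 36 libraries of the series. Richland has the I locus genotype I R t and a yellow coat, and T157 has i R t and an imperfect black coat, so the lines share R and t and differ in the labels at I. The labels do not say how the lines are related. Seeds came from greenhouse plants and coats were dissected by hand. The labels do not say whether the replicates came from separate plants, so p-values measure the spread between these libraries, which may be technical. Set beside them, with no test, were 1 Richland and 1 T157 library from seeds of 10 to 25 mg, 5 libraries with the i-i allele (Williams at 100 to 200, 200 to 300 and 400 to 500 mg, and Clark 63 and a Clark mi isoline at 50 to 100 mg) and the black-coated Williams 44 (i R T, described as an i mutation, 50 to 75 mg).

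Chalcone synthase (CHS) makes the first committed compound of the flavonoid pathway, which leads to the anthocyanins and proanthocyanidins of dark seed coats. In soybean the I locus is a region of duplicated and inverted CHS genes on chromosome 8. Its dominant alleles are known to give rise to double-stranded RNA that is cut into small interfering RNAs, and these direct the destruction of CHS messenger RNA in the seed coat. The recessive i allele lacks this silencing, and the coat is pigmented.

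The 6 libraries were of like depth in reads, at 11.9 to 12.9 M. A hit is a read aligned to a gene on its sense or its antisense strand. Hits on genes were 6.9, 6.49 and 6.51 M in Richland and 7.62, 7.61 and 9.21 M in T157, so the lines did not overlap. Hits fell on 23135 to 26335 of 52872 genes, and the 20 most abundant genes took 59.0 to 71.6% of them. A level of 3 hits corresponds to 0.326 to 0.462 CPM, where CPM is hits per M gene hits of the library. The antisense share of all gene hits was 62.9 ± 4.37% in Richland and 61.5 ± 2.39% in T157 (mean ± SD, n = 3 each), with p = 0.8 by a two-sided exact permutation test, whose smallest possible p here is 0.1. Replicates of a line differed by far more than counting error, with a chi-square per degree of freedom of 51.1 in Richland and 68.5 in T157. Fewer cells of a type and less small RNA per cell cannot be told apart in whole seed coats. Small RNA hits are no measure of messenger RNA, so the labelled tissue could not be checked against marker genes. Summed hits on the marker lists overlapped between the lines, at 1160 to 1280 CPM in Richland and 987 to 1190 CPM in T157 for photosynthesis genes and at 161 to 344 and 206 to 329 CPM for seed storage genes, and the sums for histone genes overlapped too.

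Of 10761 genes with enough hits to test, 121 (1.12%) differed between the lines, 70 of them higher in Richland (0.65%) and 51 lower (0.474%), by edgeR's quasi-likelihood test at a Benjamini-Hochberg adjusted p under 0.05. With levels set by sequenced reads in place of gene hits, a partly different set of 121 genes was called, 47 higher and 74 lower. The split shifted as that scaling moved the median log2 change of all genes from −0.01 to −0.33. Of the first 121 calls 98 were kept, and none of those still tested changed direction. The lines did not overlap for 60 of the 70 higher genes and 50 of the 51 lower genes, against 11.5% of all tested genes. Many called genes had near-equal counts, within 5% or 3 hits in each of the 6 libraries or linked through a gene that was, and such genes may share reads. By that measure the 70 higher genes formed 46 groups and the 51 lower genes 28, the largest with 8 and 6 genes. Calls at high levels fell on CHS genes. Of 538 tested genes at or above 100 CPM on average, 18 were called, and all 18 were CHS genes. Of the rest, 85 called genes were below 10 CPM.

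**Figure D1:**
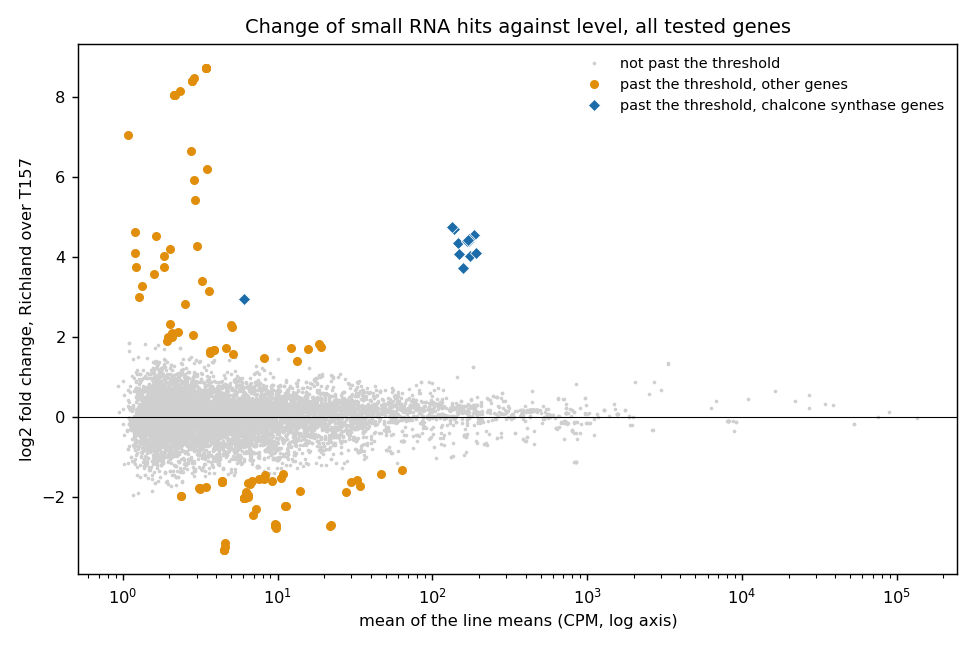
Log2 fold change of Richland over T157 against the mean of the line means in CPM (log axis) for the 10761 tested genes. Chalcone synthase genes are diamonds and other genes past the threshold are orange; the 18 called genes with at least 100 CPM are all chalcone synthase genes, and the other calls lie at lower levels.

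The CHS genes rose as a family. The annotation holds 23 genes described as chalcone and stilbene synthases, of which 21 had a hit in the 6 libraries and 19 had enough to test. All 19 rose in Richland, by a median of 4.39 on the log2 scale (range 2.96 to 4.75), against −0.01 for all tested genes, and each remained past the threshold when any of the 6 libraries was left out. Many members had near-equal counts and may share reads, so the 19 are not independent measurements. Of the 4 untested genes, Glyma.06G118550 had 5, 4 and 4 hits in Richland and 0 in T157, Glyma.01G073600 had 8, 10 and 7 hits against 8, 17 and 12, all of them sense, and Glyma.11G097900 and Glyma.12G023832 had none.

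CHS7 (Glyma.01G228700) and CHS8 (Glyma.11G011500) encode the CHS enzymes whose messenger RNAs are the known main targets of this silencing in seed coats. CHS7 had 1832, 1089 and 2344 hits in Richland replicates 1 to 3 and 64, 99 and 98 in T157. CHS8 had 1770, 1073 and 2311 hits in Richland and 62, 100 and 83 in T157. Richland replicate 2 was the lowest of its line for both genes, and its level was still over 10 times that of every T157 library. The fitted changes were 4.69 ± 0.42 and 4.75 ± 0.42 log2 (standard error, edgeR adjusted p = 2.46e-14 for each). Sense hits were near-equal between the 2 genes, at 1423, 838 and 1908 for CHS7 and 1420, 838 and 1893 for CHS8 in Richland. The genes may share reads, so their changes may not be separate measurements.

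The 12 tested members on chromosome 8, where the I locus lies, rose by 4.09 to 4.54 log2. Their counts were nearly alike. Glyma.08G109200, Glyma.08G110340, Glyma.08G110500 and Glyma.08G110701 each had 2033, 1391 and 2894 hits in Richland and 124, 105 and 148 in T157, so the 12 values are not 12 independent ones. The pair Glyma.08G110300 and Glyma.08G110460 rose most among them (4.54 ± 0.42, edgeR adjusted p = 6.99e-14), and Glyma.08G109300 least (4.09 ± 0.41, edgeR adjusted p = 6.52e-13).

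Elsewhere in the genome, the changes spread more widely. Glyma.01G091400 had 271, 193 and 411 CPM in Richland and 25.7, 18.3 and 22.7 CPM in T157, a change of 3.72 ± 0.40 log2 (edgeR adjusted p = 1.67e-11). Glyma.05G153200 had 2112, 1450 and 3028 against 194, 120 and 188, a change of 4.02 ± 0.41 log2 (edgeR adjusted p = 1.92e-12). Both fitted changes were smaller than those of CHS7 and CHS8, and T157 held more hits on these genes. Per 1000 bases of transcript, the mean levels in T157 were 14.9 CPM for Glyma.01G091400 and 13.3 CPM for Glyma.05G153200, against 7.21 for CHS7 and 6.27 for CHS8, while in Richland they were 195 and 215 against 179 and 161. The differences in change between members were not tested. In the older pair of 10 to 25 mg, the T157 library had 1081 hits on Glyma.01G091400, 1074 on Glyma.05G153200, 564 on Glyma.02G130400 and 304 on CHS8. The Richland to T157 CPM ratio there was 8.66 (95% counting interval 8.14 to 9.23) for Glyma.01G091400 and 17.1 (15.7 to 18.6) for Glyma.02G130400. It was 45.6 (40.7 to 51.2) for CHS8 and 46.9 (41.4 to 53.3) for Glyma.08G110300, with 1 library of each line.

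Glyma.19G105100 had the lowest level of the tested members in both lines. It had 68, 38 and 107 hits in Richland and 11, 14 and 9 in T157, a change of 2.96 ± 0.44 (edgeR adjusted p = 6.93e-07). Its mean was 10.7 ± 5.34 CPM in Richland and 1.42 ± 0.432 CPM in T157 (SD, n = 3 each). Per 1000 bases of transcript its Richland level was 6.83 CPM, against 179 CPM for CHS7 and 161 CPM for CHS8. In the older, i-i seed coats of Williams and Clark the same gene held 99.5 to 950 CPM, while Richland at 10 to 25 mg held 13.3 CPM.

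**Figure D2:**
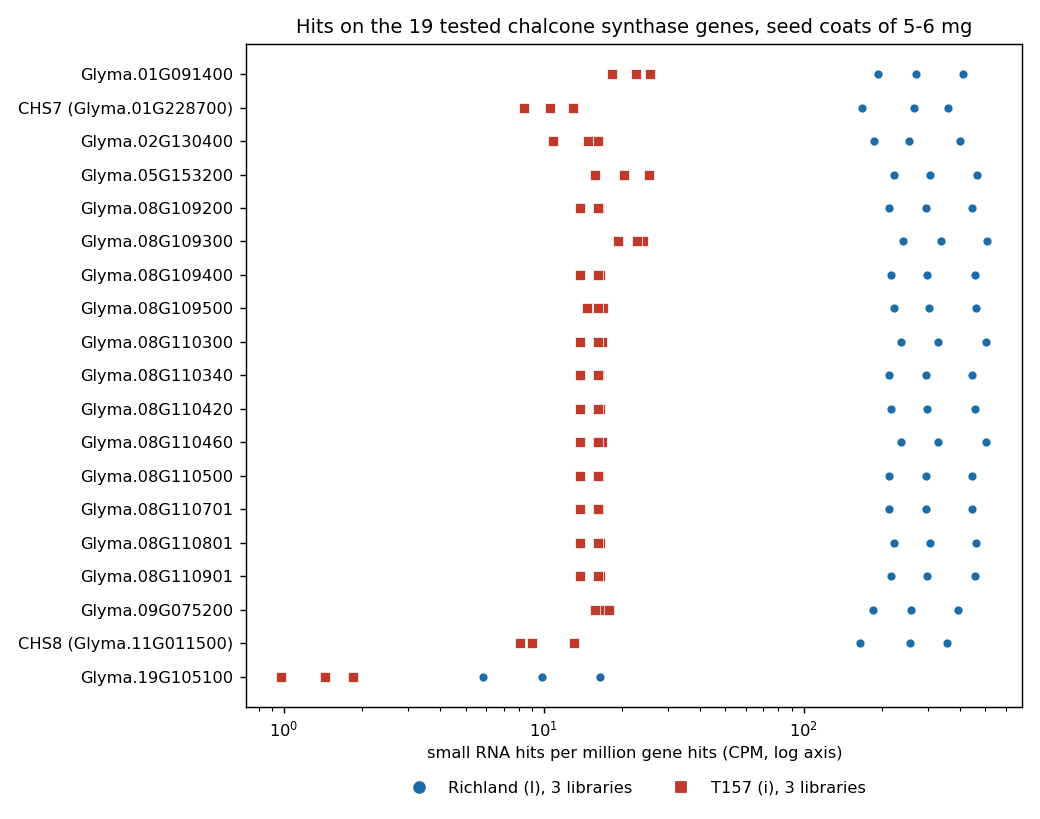
Hits on the 19 tested chalcone synthase genes in CPM (log axis), 1 point per library, circles for the 3 Richland and squares for the 3 T157 libraries. The lines do not overlap for any gene; Glyma.19G105100 lies lowest in both lines, with a Richland mean of 10.7 CPM.

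The CHS changes were found on both strands. Tested strand by strand, 66 of 6116 genes (1.08%) differed in sense hits, 39 higher in Richland (0.638%) and 27 lower (0.441%). In antisense hits 75 of 5944 (1.26%) differed, 49 higher (0.824%) and 26 lower (0.437%). Of the 1744 genes tested on both strands, 20 were called on both, of which 19 were the CHS genes. The other was the ribosomal protein L20 gene Glyma.12G232100, which fell on each. Its sense and antisense hits were near-equal in every library (95, 61 and 88 sense and 95, 61 and 87 antisense in Richland). Its 2 strands may therefore not be separate measurements. The sense change of the CHS genes was 3.88 to 4.67 log2 (median 4.55) and the antisense change 2.24 to 5.81 (median 4.16). For CHS7 the 2 strands moved alike, by 4.67 sense and 4.70 antisense. For CHS8 the antisense hits were 350, 235 and 418 in Richland and 4, 4 and 15 in T157, a change of 5.81 against 4.55 on the sense strand, but the difference between the strands did not pass the test (1.25 ± 0.37 log2, edgeR adjusted p = 0.118).

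Among the CHS genes, 2 lost relatively more sense than antisense hits in T157. Glyma.09G075200 had 1321, 855 and 1908 sense hits in Richland and 81, 50 and 84 in T157, and 473, 349 and 655 against 48, 70 and 80 antisense hits. Its antisense share was therefore 26.6% in Richland and 47.9% in T157, and the strand difference was −1.33 ± 0.29 log2 (edgeR adjusted p = 0.0047). Glyma.08G109300 had an antisense share of 36.1% in Richland and 56.7% in T157 (−1.17 ± 0.28, edgeR adjusted p = 0.015). Both calls rested on single libraries. The first was lost without Richland replicate 1, T157 replicate 2 or T157 replicate 3 (edgeR adjusted p = 0.0853, 0.353 and 0.0603), and the second also without Richland replicate 3. The sense share of CHS7 and CHS8 together was 78.9, 77.5 and 81.7% in Richland and 88.9, 92.5 and 72.9% in T157. The lines overlapped, and the difference of −5.39 percentage points gave p = 0.4 by a two-sided exact permutation test (n = 3 each).

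Outside the family, called genes were mostly hit on 1 strand, as were tested genes in general. Of the called genes without CHS, 44 had over 90% of their hits antisense (43.1%, against 35.9% of tested genes) and 41 had under 10% antisense (40.2%, against 36.3%).

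**Figure D3:**
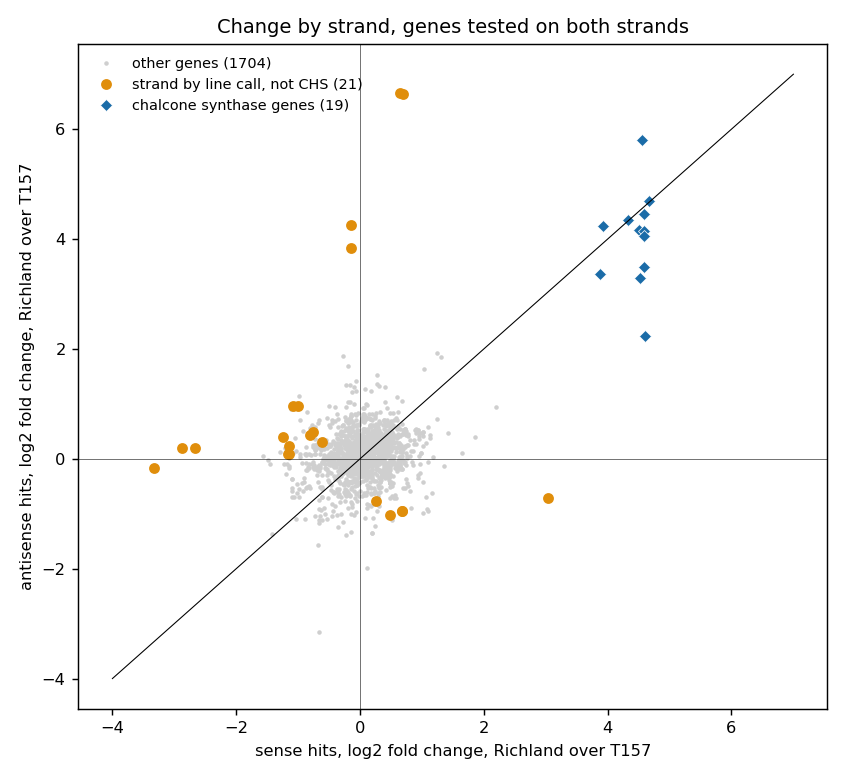
Log2 fold change of Richland over T157 in sense hits (horizontal) and antisense hits (vertical) for the 1744 genes tested on both strands, with the line of equal change. The 19 chalcone synthase genes lie at positive changes on both axes, and the 21 other genes shown with a line by strand difference lie off the diagonal.

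Small RNAs of several other genes were present in Richland and absent or nearly absent in T157. These genes passed the filter on low counts only through Richland, so that they differ is partly a consequence of the filter; 12 called genes in 5 groups had no T157 hit. Glyma.17G258600, described as THAUMATIN-LIKE PROTEIN 1, of a family with members induced by pathogens, had 31, 26 and 58 sense hits in Richland and 0 in all 3 T157 libraries. Against a floor of 3 hits over the 3 T157 libraries, Richland was at least 47.1-fold higher. At 10 to 25 mg it had 332 hits in Richland and 0 in T157. It held 1.40 to 20.4 CPM in the 5 i-i seed coats and 0 in Williams 44, so hits were found in all 9 libraries with I or i-i and in none of the 5 with i.

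The 5 genes around Glyma.10G286900 on chromosomes 10 and 20 encode proteins with a GRAM domain, a lipid-binding module, described as related to abscisic acid response. Glyma.10G286900 had 51, 33 and 53 hits in Richland and 0, 2 and 0 in T157, 97.8% of those in Richland antisense. Its change was 6.19 ± 0.68 (edgeR adjusted p = 2.06e-11), and the other members, Glyma.10G287200, Glyma.20G101800, Glyma.20G102000 and Glyma.20G102200, had 0 T157 hits. At 10 to 25 mg it had 30 hits in Richland and 1 in T157.

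Glyma.05G072500 and Glyma.19G055700, which encode pentatricopeptide repeat proteins, a class that binds and processes organelle RNA, shared 32, 22 and 32 antisense hits in Richland and had 0 in T157. At 10 to 25 mg Glyma.05G072500 had 27 hits against 1. Glyma.15G206000, of unknown function (DUF1068), had 25, 18 and 43 sense hits against 0, which put Richland at least 35.2-fold higher. Glyma.04G030400, a glycosyl hydrolase gene, had 44, 25 and 45 sense hits against 1, 0 and 1, a CPM ratio of 70.0 with a counting interval of 18.9 to 585, and Glyma.06G030500 and Glyma.09G021400 had near-equal counts. Glyma.09G021400 is described as an RHD3 gene, of GTPases that shape the endoplasmic reticulum.

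Other genes with hits in young Richland coats had few in the older ones. The basic helix-loop-helix transcription factor gene Glyma.01G068600 had 36, 14 and 44 sense hits in Richland against 0, which put it at least 38.5-fold higher, but 5 and 1 in the older pair and 0.0656 to 0.507 CPM in the i-i seed coats. Glyma.01G131100, which encodes an aspartate aminotransferase of amino acid metabolism, had 33, 17 and 61 antisense hits against 0, at least 45.4-fold higher, but 5 and 0 in the older pair. No hit on it was found in the i-i seed coats.

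Genes of unlike function shared that last count profile. Antisense hits within 5% or 3 hits of 33, 17, 61, 0, 0 and 0 were found on 5 genes. Besides Glyma.01G131100 and Glyma.17G176700, which has no description, these were the callose synthase genes Glyma.13G239300 and Glyma.15G074000 (glucan synthase-like 1) and the NAC transcription factor gene Glyma.04G249000. Glyma.04G249000 had 35, 20 and 63 antisense hits in Richland against 1, 3 and 1. Whether these genes were hit by the same reads was not tested.

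The glucan synthase-like genes were called also for a difference between strands. Glyma.13G239300 had 33, 17 and 61 antisense hits in Richland and 0, 1 and 0 in T157, but 7, 8 and 40 sense hits against 13, 13 and 17, so the strands differed by 6.13 ± 1.07 log2 (edgeR adjusted p = 3.02e-05). The sense hits overlapped between the lines, and only the antisense hits separated them.

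**Figure D4:**
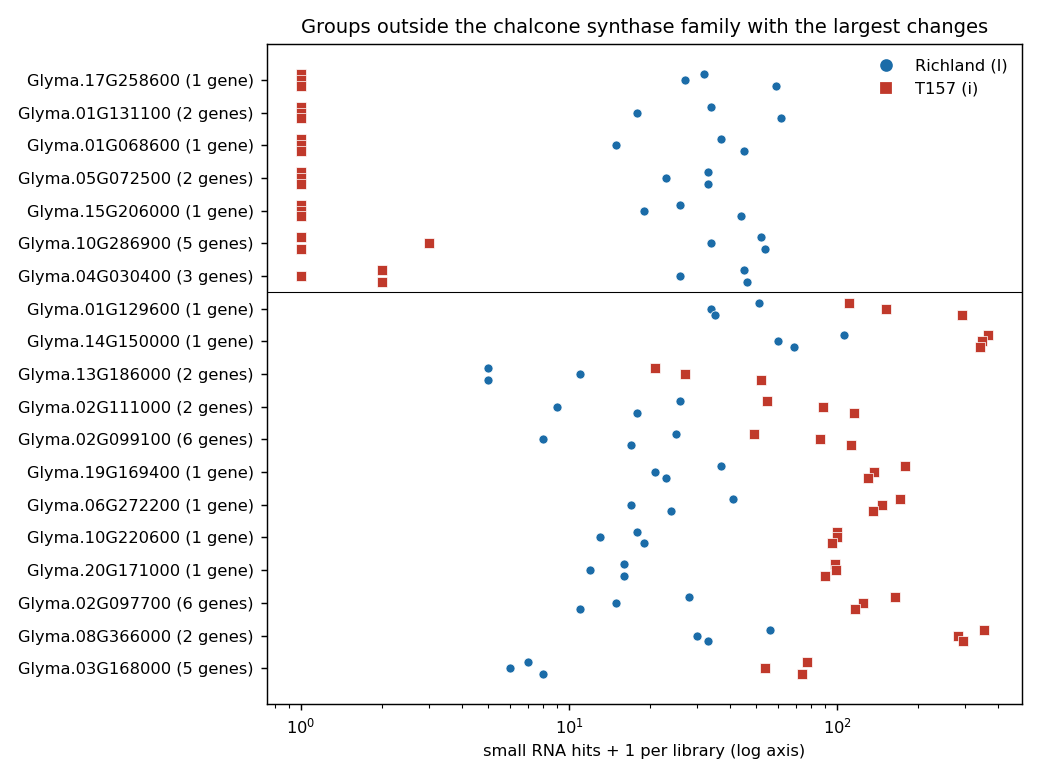
Hits + 1 per library (log axis) for the 7 higher and 12 lower groups outside the chalcone synthase family with the largest changes and a mean of at least 2 CPM, each shown by its first gene with the number of genes in the group. In the upper panel T157 lies at 0 to 2 hits (drawn at 1 to 3), and in the lower panel the lines do not overlap for any of the 12 groups.

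The genes lower in Richland kept some hits there, and none of the 51 was absent from either line. The group of 5 genes headed by Glyma.03G168000 fell most. Glyma.03G168000 is a pleiotropic drug resistance 12 (PDR12) gene, of an ABC transporter family that includes an abscisic acid importer in Arabidopsis. It had 6, 5 and 7 sense hits in Richland and 76, 53 and 73 in T157, a change of −3.14 ± 0.47 (edgeR adjusted p = 8.59e-07), and Glyma.03G168200 in the same group changed by −3.31 ± 0.48. All 3 Richland libraries lay far below the T157 libraries.

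This profile too crossed gene families and strands. Counts within 5% or 3 hits of it were found in the sense hits of Glyma.03G168200 and Glyma.19G169200 (both PDR12), Glyma.04G026500 (an alpha/beta hydrolase) and Glyma.08G222300 (an O-fucosyltransferase), and in the antisense hits of Glyma.04G202700 (a Rossmann-fold protein) and Glyma.08G212100. For Glyma.19G169200 the sense hits were 6, 3 and 7 against 76, 53 and 73, while its antisense hits were 32, 19 and 15 against 38, 21 and 36 and overlapped, and the strands differed by 3.11 ± 0.64 log2 (edgeR adjusted p = 0.00133).

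A second profile was shared by 7 genes. Glyma.02G097700, of the aluminium-activated malate transporter family of anion channels, had 3.92, 2.16 and 1.54 CPM in Richland and 21.5, 16.3 and 12.6 CPM in T157, nearly all of it sense. Glyma.02G159900 (PDR11), Glyma.02G197000 (a leucine-rich repeat kinase), Glyma.08G260200 (malate transporter family), Glyma.10G081300 (transmembrane kinase 1) and Glyma.19G169400 (PDR12) had near-equal sense hits, and Glyma.11G223500 (glucose-1-phosphate adenylyltransferase) near-equal antisense hits. Over both strands Glyma.02G097700 fell by 2.67 on the log2 scale (standard error 0.43, edgeR adjusted p = 3.33e-06).

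Several of the lower groups were also high in Williams 44. Glyma.02G097700 held 109 CPM there, 0.389 to 3.17 CPM in the 5 i-i seed coats, and at 10 to 25 mg 0.404 CPM in Richland against 7.68 CPM in T157. Glyma.08G366000, which has no description, had 55, 29 and 32 hits in Richland and 352, 281 and 294 in T157 (−2.69 ± 0.39, edgeR adjusted p = 3.79e-07), held 123 CPM in Williams 44 and 0.622 to 4.78 CPM in the i-i coats. The PDR12 gene Glyma.19G169400, with 36, 20 and 22 hits against 179, 136 and 129, had 6417 hits in Williams 44 and held 4.60 to 8.40 CPM in the i-i coats. Glyma.02G097700 and Glyma.19G169400 shared a sense profile at 5 to 6 mg and had 5970 and 6417 hits in Williams 44. They may therefore not be separate measurements. For Glyma.08G366000 as well as for this pair, the single Williams 44 library lay above every other seed coat.

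The same held for Glyma.06G272200 (fatty alcohol oxidase 3), which had 5.80, 2.46 and 3.53 CPM in Richland and 22.4, 19.2 and 14.7 CPM in T157. Its antisense hits, 34, 15 and 16 against 168, 134 and 118, were close to the sense hits of Glyma.02G097700. It held 109 CPM in Williams 44 (6006 hits) and 1.09 to 4.94 CPM in the i-i coats. Glyma.14G150000, which has no description, had 105, 59 and 68 hits against 365, 347 and 340, and held 124 CPM and 1.32 to 5.61 CPM. Glyma.20G171000 and Glyma.10G220600 have no description either, and the latter had 17, 12 and 18 hits in Richland and 99, 99 and 95 in T157 (−2.29 ± 0.42, edgeR adjusted p = 7.53e-05). Glyma.20G171000 had 15, 11 and 15 antisense hits in Richland and 97, 98 and 89 in T157. It held 10.2 CPM in Williams 44 and 0 to 0.114 CPM in the i-i coats, but in the older pair it had only 0 hits in Richland and 6 in T157.

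Counted over all lower genes, Williams 44 lay above all 5 i-i seed coats for 30 of 51 (58.8%), against 26.1% of tested genes, or for 14 of the 28 groups. For the higher genes it lay below all 5 for 41 of 70 (58.6%), against 33.5% of tested genes, and 19 of those 41 were CHS genes. Of the 35 higher groups outside CHS it lay below all 5 for 14 (40.0%), near the share of all tested genes, and above all 5 for 7. The older pair lay on the same side as the 5 to 6 mg libraries for 63 of 70 higher genes and 38 of 51 lower genes (74.5%), against 52.2% of tested genes. By group, it did so for 42 of 46 higher and 18 of 28 lower ones (64.3%). The older Richland library was above the T157 library for 72.2% of all tested genes and below it for 26.3%. Over all 14 immature seed coats, 10 tested genes (0.0929%) had every i library above every I or i-i library, in 4 groups. In 35 genes (0.325%) every i library lay below. All of the 10 and 31 of the 35 were among the called genes, the 31 in 18 groups. The 35 included all 19 tested CHS genes. Some of the 4 groups had close counts on a strand, as given above, and may not be separate measurements. These counts include the 6 libraries that made the calls. Williams 44 also differs from the i-i lines in seed weight for most of them and from T157 at T, and what these contribute cannot be told apart from the I locus in 1 library.

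**Figure D5:**
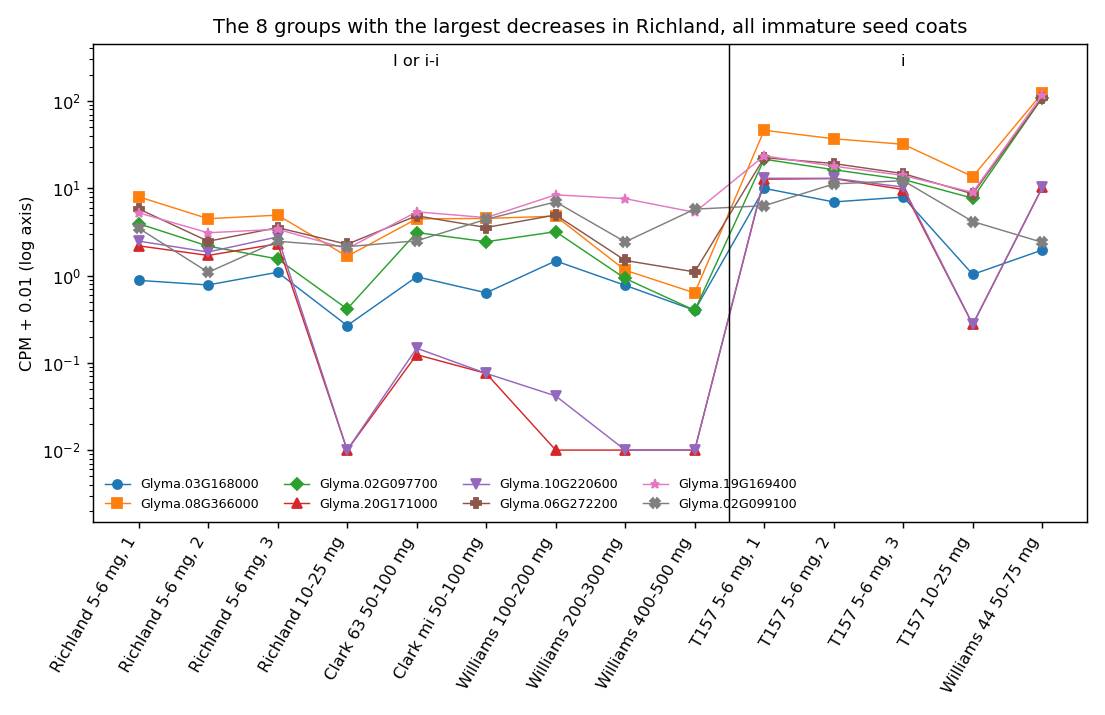
Level in CPM + 0.01 (log axis) of the first gene of the 8 groups with the largest decreases in Richland, across the 14 immature seed coat libraries, 9 with I or i-i on the left and 5 with i on the right; lines only join points of a gene. Glyma.08G366000, Glyma.02G097700 and Glyma.06G272200 reach 109 to 123 CPM in Williams 44, while Glyma.03G168000 and Glyma.02G099100 stay at 1.95 and 2.39 CPM there.

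Williams 44 was not high for every lower group. Glyma.02G099100, a C2H2 zinc finger gene, had 24, 7 and 16 hits in Richland and 48, 85 and 112 in T157 (−2.02 ± 0.42, edgeR adjusted p = 0.00118), and it held 2.39 CPM in Williams 44 against 2.42 to 6.97 CPM in the i-i coats. Its call was lost without Richland replicate 2 (edgeR adjusted p = 0.0557), as was that of Glyma.02G111000, a GOLD family gene of vesicle transport (−2.00 ± 0.42, edgeR adjusted p = 0.0514 without it). Glyma.01G129600, a 2-oxoglutarate-dependent dioxygenase gene, had 50, 33 and 34 hits against 110, 151 and 292, and its call was lost without T157 replicate 3 (−1.41, edgeR adjusted p = 0.127). Glyma.13G186000, an invertase and pectin methylesterase inhibitor gene, had 4, 10 and 4 hits against 20, 26 and 51 (−1.97 ± 0.52, edgeR adjusted p = 0.0304). It held 4.79 CPM in Williams 44 and 4.33 CPM in T157 at 10 to 25 mg, above Richland at that weight (1.98 CPM) and the i-i coats (1.60 to 3.42 CPM). Its call was lost without Richland replicate 1, Richland replicate 3 or T157 replicate 3 (edgeR adjusted p = 0.327, 0.259 and 0.438). Its sense hits were near-equal to the antisense hits of Glyma.17G158500, a thioredoxin superfamily gene, and may share reads with them. Over all called genes, 48 of the 70 higher and 19 of the 51 lower ones remained past the threshold whichever library was left out.

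The balance of strands differed between the lines at 44 of 10761 tested genes (0.409%), by a model with a line by strand term. In 32 of them Richland had relatively more antisense hits (0.297%), and in 12 relatively fewer (0.112%). Only 11 of the 44 had also been called in the sum of both strands. Glyma.18G001700, which has no description, had 51, 28 and 61 antisense hits in Richland and 3, 1 and 5 in T157, but 20, 15 and 44 sense hits against 31, 37 and 41. The antisense hits separated the lines and the sense hits did not (4.44 ± 0.69 log2, edgeR adjusted p = 1.3e-06). The sense hits were near-equal to the antisense hits of Glyma.05G084200, a nucleoside triphosphate hydrolase gene, and may share reads with them.

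The tetratricopeptide repeat gene Glyma.04G010200 had 93, 110 and 130 antisense hits in Richland. T157 replicates 2 and 3 had 9 and 42, while T157 replicate 1 lay above every Richland library, so the lines overlapped. Glyma.13G345000 had near-equal counts. These 2 calls (2.79 ± 0.46 and 2.69 ± 0.45 log2) were lost without T157 replicate 2 (edgeR adjusted p = 0.106 and 0.141). The antisense hits of both genes were near-equal to the sense hits of Glyma.11G089700, a nucleoside phosphatase gene. The sense hits of Glyma.04G010200 were near-equal to the antisense hits of Glyma.09G188600, a leucine-rich repeat gene. Such genes may share reads. In the opposite direction, the S-adenosylmethionine synthetase gene Glyma.07G233800, whose enzyme makes the common methyl donor, had 5, 9 and 3 sense hits in Richland and 0 in T157. Its antisense hits were 74, 54 and 63 against 56, 128 and 150 (−6.15 ± 1.25 log2, edgeR adjusted p = 0.000903), and the call was lost without T157 replicate 3 (edgeR adjusted p = 0.0608).

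Phytochrome A, the far-red light receptor gene Glyma.10G141400, had 1582, 1754 and 1762 sense hits in Richland and 1673, 1636 and 1372 in T157. Its few antisense hits were 45, 33 and 22 against 60, 94 and 123, a strand difference of −1.58 ± 0.30 log2 (edgeR adjusted p = 0.000185), lost without T157 replicate 3 (edgeR adjusted p = 0.0864). Its sense hits were near-equal to the antisense hits of Glyma.09G216400, a leucine-rich repeat kinase gene, and may share reads with them. Glyma.06G013900, an ARID/BRIGHT DNA-binding gene, had 29, 13 and 34 sense hits against 5, 1 and 5, and 23, 17 and 21 antisense hits against 19, 51 and 67 (−3.77 ± 0.73 log2, edgeR adjusted p = 0.000247). That call was lost without T157 replicate 2 (edgeR adjusted p = 0.0544). The ubiquitin-related gene Glyma.15G259200 (−1.64 ± 0.38 log2, edgeR adjusted p = 0.00835) had 22, 24 and 25 antisense hits against 38, 55 and 94. Counts within 5% or 3 hits of these were found on 21 genes in all, 17 on the antisense and 4 on the sense strand. The call was lost without any of 4 libraries (edgeR adjusted p = 0.0924, 0.122, 0.151 and 0.228). With all libraries in turn left out, 4 of the 44 strand calls remained in every fit.

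The other gene groups are read against the 1.12% of all tested genes that were called, so a short list without a call is not a result about that list. None of the 11 tested flavonoid pathway genes beyond CHS was called. Their median change was 0.31, and stayed 0.31 to 0.33 above that of all genes under each of 4 scalings, although with levels set by sequenced reads it was −0.02. The smallest p was that of the flavanone 3-hydroxylase gene Glyma.16G128700 (0.81 ± 0.39, edgeR adjusted p = 0.589). None of the 20 tested RNA silencing genes was called either, with a median of 0.09 and the dicer-like 4 gene Glyma.13G156500 at −0.80 ± 0.46 (edgeR adjusted p = 0.745).

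The SPL genes, transcription factor genes targeted by the microRNA miR156, had a median change of −0.55, with 35 of 39 below 0 and 26 of 39 not overlapping between the lines. Of all tested genes, 50.4% were below 0 and 11.5% did not overlap. No member was called; the smallest p was that of Glyma.13G177400 (−0.80 ± 0.36, edgeR adjusted p = 0.517). Relative to the median of all genes it was −0.54 to −0.50 under the 4 scalings. Their summed level was 541 to 874 CPM in Richland and 910 to 1330 CPM in T157. Hits on many SPL genes can come from the same microRNA, so the members are not separate measurements.

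Of the resistance genes, 266 were tested and none called (median 0.13), with the smallest p at Glyma.12G011700 (−1.26 ± 0.38, edgeR adjusted p = 0.112), which passed without T157 replicate 1 (edgeR adjusted p = 0.0428). Of the tested pentatricopeptide genes 3.54% were called, 2 in each direction, against 1.12% of all tested genes, but each pair shares its counts and is 1 group. The higher ones were Glyma.05G072500 and Glyma.19G055700, and Glyma.13G060751 and Glyma.13G060802 shared their counts and a change of −1.58 ± 0.43 (edgeR adjusted p = 0.0432), lost when any library but T157 replicate 1 was left out. Of 81 MYB genes 1 was called, Glyma.01G038600, with 19, 14 and 57 sense hits in Richland and 8, 12 and 7 in T157 (2.06 ± 0.49, edgeR adjusted p = 0.00923). It held 4.90 to 31.8 CPM in the i-i seed coats and 2 hits in Williams 44, and its call was lost without Richland replicate 3 or T157 replicate 3 (edgeR adjusted p = 0.499 and 0.0556).

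Of 142 growth factor target genes, the NAC gene Glyma.04G249000 rose (3.15 ± 0.49, edgeR adjusted p = 2.3e-06). Of the tested ribosomal protein genes 1 was called (0.962%). This was Glyma.12G232100 (L20), with 27.6, 18.8 and 26.9 CPM in Richland and 59.4, 97.9 and 51.0 CPM in T157 (−1.41 ± 0.36, edgeR adjusted p = 0.0217). Its hits were 49.9% antisense in both lines, and it held only 5 and 4 hits in the older pair. Its call was lost when any library but Richland replicate 3 was left out (edgeR adjusted p = 0.061 to 0.242).

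No gene was called among 42 auxin signalling genes (smallest p at Glyma.19G206100, 0.52 ± 0.43, edgeR adjusted p = 0.943), 23 laccase and copper protein genes (Glyma.02G224800, 1.09 ± 0.47, edgeR adjusted p = 0.474) or 35 transposon genes (Glyma.20G064800, 0.69 ± 0.40, edgeR adjusted p = 0.754). The same was true of 23 photosynthesis genes (Glyma.12G232800, 1.37 ± 0.51, edgeR adjusted p = 0.322), 28 seed storage genes (Glyma.02G145700, −1.02 ± 0.39, edgeR adjusted p = 0.348) and 14 histone genes (Glyma.15G040200, −1.16 ± 0.43, edgeR adjusted p = 0.314). A p that misses the threshold does not show that these groups were equal in both lines.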

How the data were processed

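Small RNA libraries of total RNA were made by the authors with either of a pair of kits; which library had which kit is not stated, so no kit batch could be fitted. Per the submitters' processing notes, reads were aligned with Bowtie 1; alignment settings, read sizes and what counts as unique were not found in the labels or headers. Per the file headers, the authors deposited raw counts for each transcript on each strand, as total and as unique hits. A table of CHS7 and CHS8 gives counts and RPM deposited by the authors. In it, 72 of 72 RPM values equalled the count over the sequenced reads within a tolerance of 1e-06. Its counts equalled the summed strand counts for 72 of 72. Only transcripts marked as lowest splice form were used, 1 per gene (52872), with total hits of both strands summed.

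Tests were edgeR 4.0.16 quasi-likelihood fits (R 4.3.3, TMM, filterByExpr with a minimum count of 10 and total of 15) on the 6 libraries only, with a threshold of 0.05 on the Benjamini-Hochberg adjusted p over all tested genes. The line by strand fit had a term per library and a line by strand interaction. Standard errors of these fits were derived as the absolute log2 change over the square root of the quasi-likelihood F statistic. DESeq2 1.42.0 was an alternative, the fits were tested on simulated data, and permutation tests ran in scipy 1.17.1 (Python 3.11.15, numpy 2.4.6, pandas 2.3.3). Counting intervals are exact (95%) and, like the floor of 3 hits, cover counting error only. Library depth was 6.49 to 9.21 M gene hits.

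Named were CHS7, CHS8 and the other tested CHS genes, the first gene of the 12 groups with the largest change each way with a mean of at least 2 CPM, the 5 called groups with the highest mean, the 5 genes of smallest p each way in the strand fit, and in each of 15 description-based lists the called genes or the gene of smallest p; others that share their counts, and Glyma.19G169200, were chosen after their values were seen. Comparisons, members and lists were chosen with earlier results of these data known, and list patterns that matched unintended words were corrected. Gene names other than CHS7 and CHS8, which the authors' table names, are Glyma identifiers with the deposited Arabidopsis descriptions. Sequences were not used here.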

Additional observations from a re-analysis of the deposited data

Results flagged for a closer look

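For 4 called genes, each the first of its group and with no overlap between the lines at 5 to 6 mg, the single pair of 10 to 25 mg libraries lay on the other side from the 5 to 6 mg libraries by more than the 95% counting interval. All were chosen after their values were seen, and the difference between the ages was not tested. The older Richland library lay above the older T157 library for 72.2% of all tested genes. The counting interval does not cover such an offset, so a higher level in Richland there was not particular to these genes. Glyma.11G210662 (global transcription factor C) had 49, 22 and 39 hits in Richland and 6, 17 and 22 in T157 at 5 to 6 mg, but a Richland to T157 CPM ratio of 0.861 at 10 to 25 mg (972 and 938 hits). Glyma.14G017400 (fimbrin 1) had 33, 25 and 16 against 69, 82 and 136 hits, but a ratio of 1.13 (1029 and 757 hits). Glyma.14G107300 (a protein kinase) had 37, 28 and 21 against 73, 87 and 146 hits, but a ratio of 1.12 (1066 and 789 hits). Its counts were close to those of Glyma.14G017400 in every library, so these genes may not be separate measurements. Glyma.20G110700 (a phosphotyrosine protein phosphatase) had 44, 31 and 38 against 69, 140 and 191 hits, but a ratio of 1.07 (4514 and 3492 hits). In each, the older libraries differed by far less than the younger ones. A further called gene, Glyma.18G297700, which has no description, also lay on the other side in the older pair (3447 and 2718 hits, ratio 1.05, counting interval 1.00 to 1.11), but its lines overlapped at 5 to 6 mg (45, 19 and 24 against 35, 107 and 213 hits).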

How the results depend on the processing

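The changes of CHS7 and CHS8 kept their direction and call under all 14 alternatives (4.38 to 4.86 and 4.44 to 4.92 log2), and 14 to 20 CHS genes were called, fewest with identical genes merged. The 121 calls became 75 with identical genes merged and 45 at a mean of at least 5 CPM, where fewer genes were tested, and 99 to 156 with 1 library left out. DESeq2 called 106 and unique hits 95. The unique share of hits was 100% for Glyma.08G109200 and Glyma.08G110340, which had equal counts, so unique hits do not exclude reads shared between genes. As a share of tested genes, sense calls (1.08%) ranged from 0.903 to 1.79% with 1 library left out, the highest without T157 replicate 1, where 73 genes were higher and 44 lower. Antisense calls (1.26%) ranged from 0.971 to 1.54%, and with no low-count filter 120 of 21632 genes were called (0.555%). The 44 line by strand calls became 16 to 37 with 1 library left out, 19 without Richland replicate 1, 29 without Richland replicate 3, and 16 without T157 replicate 2 or 3. Without the 20 most abundant genes the antisense share of all hits differed by −0.847 percentage points, the opposite sign. The cause was not tested. Of 701 values of 52 other named genes under alternatives, 657 kept their call, 40 lost it, 4 gained it and none reversed. The difference in summed CHS RPM was 4.00 or more log2 and the sense share difference −11.3 to −1.54 points with 1 library left out.

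With a replicate block, 89 genes were called for total hits (56 higher, 33 lower), 57 for sense (0.932%) and 50 for antisense hits (0.841%). The labels number the replicates but state no pairing. Same-numbered libraries deviated from their line means with correlations of −0.20, −0.10 and −0.18, and differently numbered ones with −0.03 to 0.19. With 3 libraries of each line, these values cannot decide whether the libraries were paired.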

Other observations

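Hits on 2 of the lower genes, both chosen after their values were seen, were found in the youngest coats of both lines and hardly in the other seed coats. Glyma.10G103100, which encodes a calcium-dependent protein kinase, had 95, 105 and 98 hits in Richland and 463, 481 and 318 in T157, 97.3 and 99.1% of them antisense, but 18 and 7 hits in the pair of 10 to 25 mg and 0 to 0.263 CPM in the i-i seed coats. Glyma.13G238200, which encodes a subunit of translation initiation factor 3, had 89, 91 and 93 sense hits in Richland against 373, 429 and 288, and 13 and 9 in the older pair. Both changes (−1.71 ± 0.37 and −1.62 ± 0.37 log2, edgeR adjusted p = 0.00215 and 0.00445) lost their call without Richland replicate 1 or T157 replicate 1.

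The jasmonate signalling repressor gene Glyma.02G310100 (JAZ8) was also chosen after its values were seen. It had 34, 18 and 62 sense hits in Richland and 3, 0 and 4 in T157 (4.27 ± 0.59, edgeR adjusted p = 1.04e-07), counts close to the antisense hits of the aspartate aminotransferase gene Glyma.01G131100.

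Values at or below about 3 hits, 0.326 to 0.462 CPM in these libraries, could not show differences. The test needs several hits per library, and 3 against 3 libraries allow no exact p below 0.1.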
